A study of Mus musculus with 5 samples.

Results

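To see how the mitotic program of murine lung cancer-associated fibroblasts (CAFs) stood after miR-200 overexpression, 40 mitosis and cytokinesis genes were followed by name in the RNA sequencing table, which holds 21835 genes. They were chosen by symbol, for their roles in mitosis, from mitotic entry to cytokinesis, and all 40 passed the filter on low values. The CAFs carried either an empty lentiviral vector (CAF-vec, 2 samples, labelled wild-type control) or a vector with a gene cluster encoding miR-429, miR-200a and miR-200b (CAF-200, 3 samples), and both were grown in alpha-MEM with FBS. The labels describe infection of CAFs with a pLVX-Neo vector and G418 selection for more than 2 weeks and name no single clones, whereas the methods name a pLVX-Hyg vector introduced into lung fibroblasts. Poly(A) RNA was read from stranded libraries, the deposited values are in CPM (normalized read counts) that scale every sample to the same total, and they do not show how deeply each sample was read.

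As background, a cell enters mitosis when the kinase Cdk1, bound to cyclins A2, B1 and B2, becomes active. Polo-like and Aurora kinases then build the spindle, kinetochores tie chromosomes to microtubules, and the spindle checkpoint holds the cell in metaphase until every kinetochore is attached. Release of the checkpoint lets Cdc20 switch on the anaphase-promoting complex (APC/C), which destroys cyclin B and securin, and the central spindle and contractile ring then divide the cell. Most of these transcripts peak in G2 and M phase under the factors B-Myb and FoxM1 acting with the MuvB complex, so their level in bulk RNA follows the share of dividing cells as well as the RNA of each cell. In these bulk samples, more cells in G2 and M phase and more of these RNAs per cell cannot be told apart. From cell counts the paper reports marginally lower growth of CAF-200 than of CAF-vec, and the RNA levels below were not tested against those counts.

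The cluster encodes miRNAs with related seeds, and the mature sequences are shown to mark the letters that are searched for in the members below. In RefSeq (GRCm38.p6) they lie on the minus strand of chromosome 4, miR-429 at chr4:156053916-156053937, miR-200a at chr4:156054911-156054932 and miR-200b at chr4:156055685-156055706. Capitals mark the seed, bases 2 to 8.
mmu-miR-200a-3p: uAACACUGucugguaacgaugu
mmu-miR-200b-3p: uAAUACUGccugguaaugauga
mmu-miR-429-3p: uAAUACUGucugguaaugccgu
miR-200b and miR-429 share a seed, which matches CAGTATT in an mRNA, while the miR-200a seed matches CAGTGTT. The miRNAs themselves are not measured in mRNA libraries. *Zeb1*, a textbook miR-200 target, was read at 43.5 and 50.8 CPM in CAF-vec and at 37.8, 37.5 and 34.1 CPM in CAF-200, so that the log2 difference was -0.36, with an adjusted *p* of 0.0504 (limma, Benjamini-Hochberg over all genes tested). The CAF-200 samples were all below the CAF-vec samples, but the difference missed the thresholds used here. *Zeb2*, another known target, was read at 46.2 and 29.8 CPM in CAF-vec and at 31.9, 31.8 and 31.1 CPM in CAF-200, and the groups overlapped (log2 difference -0.23, limma adjusted *p* = 0.374).

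Of 12 fibroblast marker genes, 1 (*Fap*) was below 1 CPM in every sample, and their summed CPM, to which *Col1a1*, *Col1a2*, *Vim* and *S100a4* gave the most, ran from 13510 to 17340 for CAF-vec and from 11470 to 12400 for CAF-200. Within this list *Lum* (log2 fold-change 2.82), *Dcn* (2.75), *Acta2* (2.63) and *Thy1* (1.46) rose, while *Col1a1* (-0.91, adjusted *p* = 0.0982, limma) did not pass either threshold, and their part in the results below was not tested. All 8 epithelial and all 6 endothelial markers were below 1 CPM in every sample. Of 7 leukocyte markers, 5 were below 1 CPM, and their summed CPM was 7.23 to 7.41 for CAF-vec and 4.73 to 5.99 for CAF-200. The 2 CAF-vec samples differed from each other more than the CAF-200 samples did. Over the 40 members the SD of the log2 difference between the CAF-vec samples was 0.345, while pairs of CAF-200 samples gave 0.0734 to 0.0933, and over all genes tested it was 0.490 against 0.192 to 0.204. Nothing in the labels says that the samples are separate cultures, so the *p* values measure only the spread between these samples, which may be technical.

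Of the 40 mitosis and cytokinesis genes, 28 were higher in every CAF-200 sample than in both CAF-vec samples, 1 was lower in every one and 11 overlapped between the groups, beside 24.3% of all genes tested that lay above and 37.3% that lay below in this way. The summed level of the 40 genes was 2917 and 2787 CPM in CAF-vec and 3734, 3582 and 3560 CPM in CAF-200, means of 2852 ± 91.7 (SD, n = 2) and 3625 ± 94.5 CPM (SD, n = 3), a ratio of 1.27. The log2 fold-change was above 0 for 35 members and below 0 for 5, with a median of 0.40 and a range from -0.44 to 1.16. Among the 12175 genes tested, 41.7% had a log2 fold-change above 0 and the median was -0.09. At an adjusted *p* under 0.01 (limma on log2(CPM + 0.5)), 5 members rose (*Mybl2*, *Mad2l1*, *Ttk*, *Ndc80* and *Kif11*) and none fell, beside 4.45% of all genes tested that were called higher and 5.57% that were called lower. At an unadjusted *p* under 0.05, 24 of the 40 were higher and 1 was lower, beside 17.3% and 27.6% of all genes tested. *Mybl2* alone also passed the fold limit of the study, a log2 fold-change above 1, which 2.37% of all genes tested passed together with the *p* threshold in the upward direction.

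At the looser adjusted *p* of 0.05, 20 members were higher and 1 was lower, where 11.9% of all genes tested were called higher and 18.6% lower. The calls at 0.01 changed with the samples used, for the members as for all genes tested. Without CAF-200 1, CAF-200 2 or CAF-200 3, no member was called at 0.01 by limma, when 0, 1 and 0 of the 12175 genes were called higher and 0 lower. At an unadjusted *p* under 0.05, 19, 19 and 21 members were then higher, beside 12.4%, 12.8% and 12.4% of all genes tested, and the adjusted *p* of the 5 members that rose was between 0.0225 and 0.0591. At 0.05 these fits called 4, 5 and 4 members higher, beside 4.34%, 4.09% and 3.57% of all genes tested, and none lower. Without CAF-vec 1 the count that rose was 25, beside 12.7% of all genes tested, and without CAF-vec 2 it was 23, beside 18.9%, fits in which the lone CAF-vec sample is assumed to vary as little as the CAF-200 samples.

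**Figure D1:**
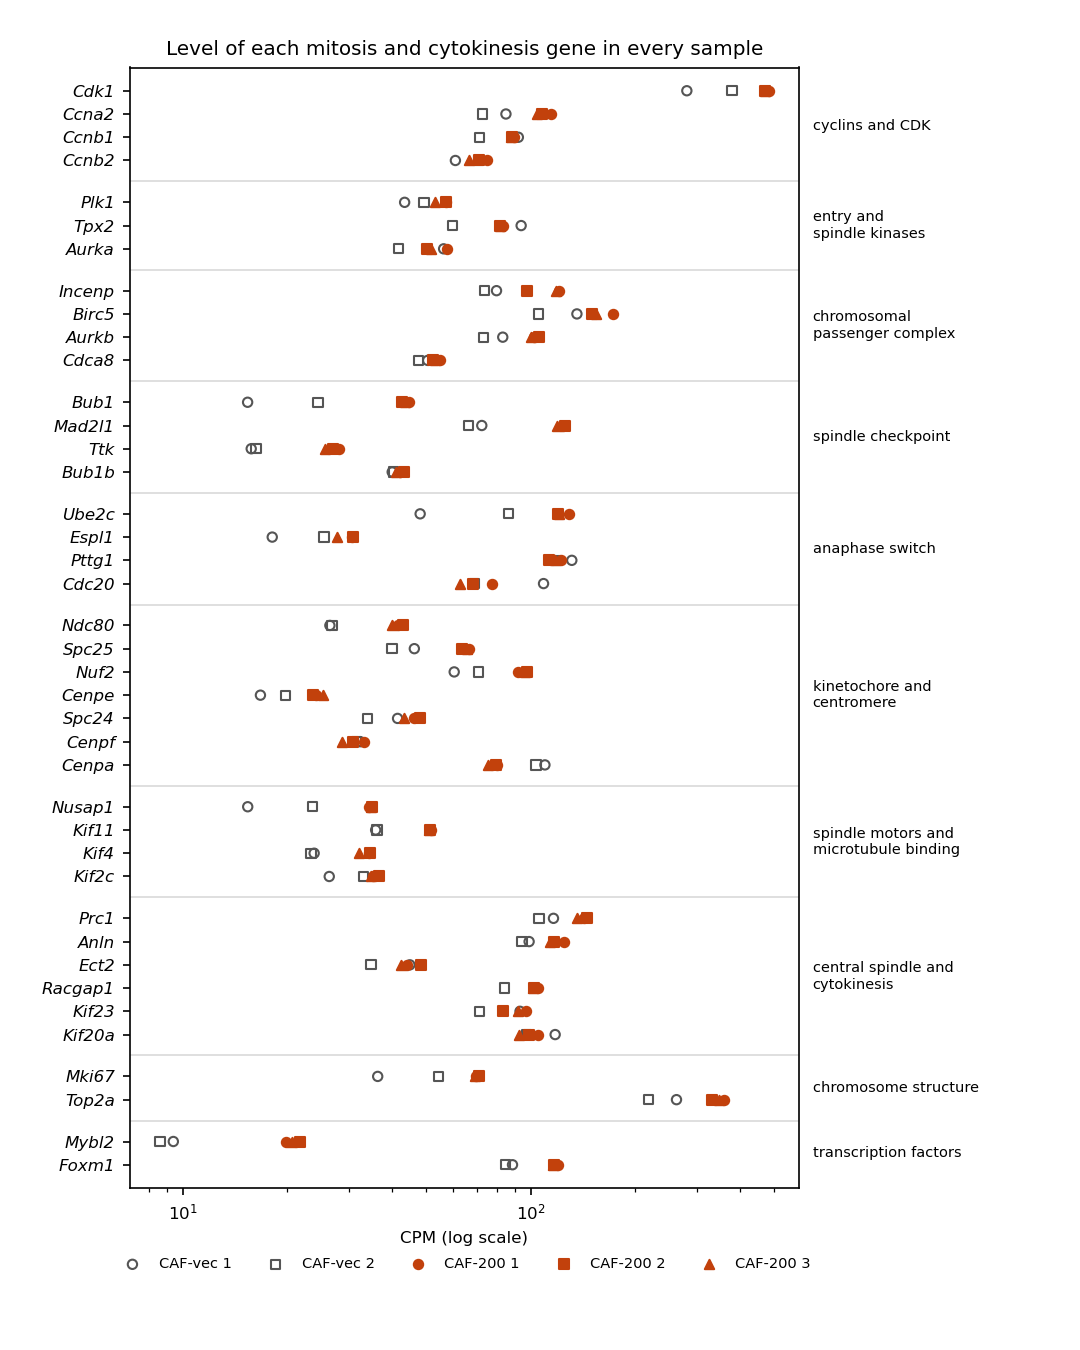
Level in CPM (log axis) of each of the 40 genes in every sample, grouped by role; open symbols are the 2 CAF-vec samples and filled symbols the 3 CAF-200 samples. The CAF-200 samples lie to the right of both CAF-vec samples in 28 genes and to the left of both in *Cenpa*, and the gap between the open symbols is wide in *Ube2c*, *Bub1*, *Nusap1*, *Mki67*, *Cdc20* and *Tpx2*.

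**Figure D2:**
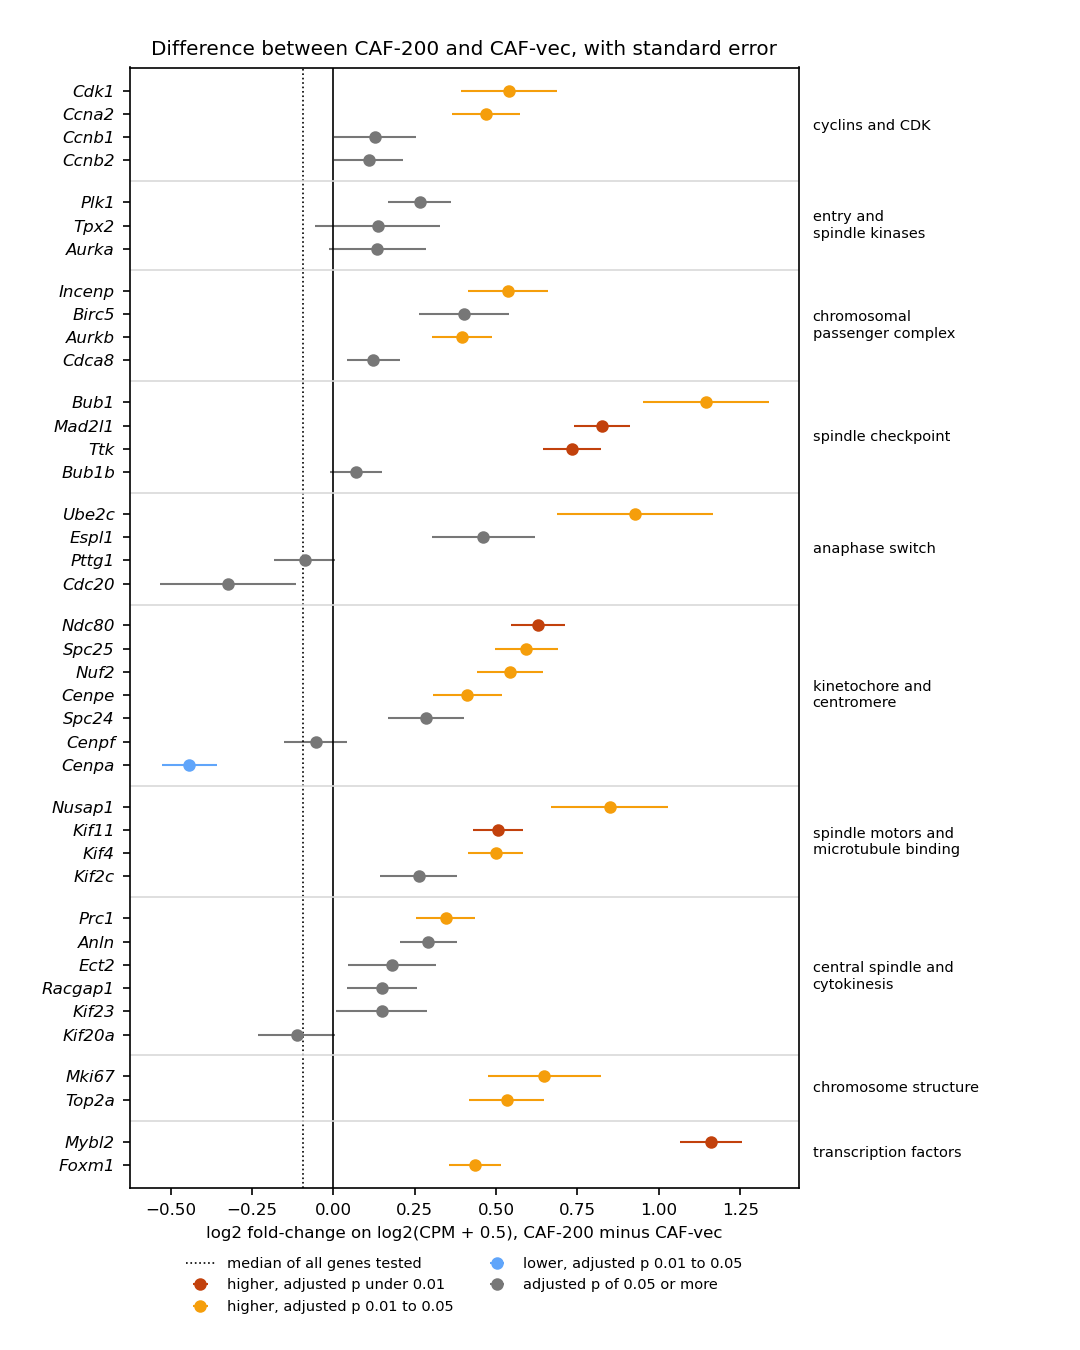
Log2 fold-change (CAF-200 minus CAF-vec, on log2(CPM + 0.5)) of the 40 genes with its standard error from limma, coloured by adjusted *p*; the dotted line is the median of all genes tested, -0.09. *Mybl2* (1.16) and *Bub1* (1.14) reach furthest to the right and *Cenpa* (-0.44) furthest to the left.

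Among the cyclins and their kinase, the kinase and the S and G2 cyclin were higher at the looser threshold, and the B cyclins were not. This threshold called 11.9% of all genes tested higher. *Cdk1*, the mitotic kinase, was read at 281 and 379 CPM in CAF-vec and at 483, 471 and 470 CPM in CAF-200 (log2 fold-change 0.54 ± 0.15 SE, adjusted *p* = 0.0406, limma). All CAF-200 samples were above both CAF-vec samples but the CAF-vec samples were apart, so that the log2 difference was 0.76 against CAF-vec 1 alone and 0.32 against CAF-vec 2 alone. *Ccna2*, cyclin A2, gave 0.47 (adjusted *p* = 0.0229, limma), with no overlap between the groups. *Ccnb1*, cyclin B1, whose destruction ends mitosis, was read at 92.2 and 71.2 CPM in CAF-vec and at 89.8, 88.5 and 87.6 CPM in CAF-200. The CAF-200 samples lay between the CAF-vec samples, and the log2 difference of 0.13 (adjusted *p* = 0.462, limma) was -0.06 without CAF-vec 2 and 0.31 without CAF-vec 1. *Ccnb2*, cyclin B2, was read at 60.8 and 71.0 CPM in CAF-vec and at 74.9, 71.2 and 66.7 CPM in CAF-200, overlapping groups with a log2 difference of 0.11 (adjusted *p* = 0.463, limma) that was -0.0024 without CAF-vec 1. The count of *Ccnb1* is uncertain, since 39.9% of the 32-base words of its exons are also in the pseudogene *Ccnb1-ps* and smaller shares in 4 other pseudogenes, none of which has a row in the table.

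None of the mitotic entry and spindle kinase genes passed either threshold, where 11.9% of all genes tested were called higher and 18.6% lower at the looser one. *Plk1*, the polo-like kinase of mitotic entry and spindle assembly, was read at 43.4 and 49.4 CPM in CAF-vec and at 57.2, 57.0 and 53.1 CPM in CAF-200, with all CAF-200 samples above (log2 fold-change 0.27 ± 0.10 SE, adjusted *p* = 0.0866, limma). *Aurka*, the Aurora kinase of spindle poles, was read at 56.2 and 41.6 CPM in CAF-vec and at 57.6, 50.4 and 51.8 CPM in CAF-200 (a log2 difference of 0.135, limma adjusted *p* = 0.51). *Tpx2*, the microtubule protein that activates Aurora A, was read at 93.9 and 59.7 CPM in CAF-vec and at 83.5, 81.7 and 81.9 CPM in CAF-200 (a log2 difference of 0.14, limma adjusted *p* = 0.606). The CAF-200 values of *Tpx2* lay between the CAF-vec samples. Without CAF-vec 2 the log2 difference was -0.19 for *Tpx2* and -0.08 for *Aurka*, and without CAF-vec 1 it was 0.46 and 0.35.

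The 4 genes of the chromosomal passenger complex, which corrects wrong attachments at centromeres and later marks the cleavage site, were above both CAF-vec samples in every CAF-200 sample, as were 24.3% of all genes tested. *Incenp*, its scaffold, was read at 79.8 and 73.8 CPM in CAF-vec and at 120, 97.3 and 118 CPM in CAF-200 (a log2 difference of 0.54, limma adjusted *p* = 0.0251), with CAF-200 2 below the other CAF-200 samples. *Aurkb*, its kinase, was read at 83.1 and 73.1 CPM in CAF-vec and at 102, 106 and 100.5 CPM in CAF-200 (a log2 difference of 0.40, limma adjusted *p* = 0.0276). Both passed the looser threshold, which 11.9% of all genes tested passed in the upward direction. *Birc5*, which encodes survivin, had a log2 fold-change as large as that of *Aurkb*, 0.40, but an adjusted *p* of 0.0755 (limma), its CAF-vec samples being further apart at 136 and 105 CPM. *Cdca8*, which encodes borealin, was read at 50.6 and 47.6 CPM in CAF-vec and at 55.0, 52.5 and 53.0 CPM in CAF-200 (a log2 difference of 0.12, limma adjusted *p* = 0.289).

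The spindle checkpoint genes had the highest median of the roles with at least 4 members, 0.78, and 2 of 4 rose, beside 4.45% of all genes tested. *Mad2l1*, which encodes the Mad2 inhibitor of Cdc20, was read at 72.4 and 66.2 CPM in CAF-vec and at 124, 126 and 119 CPM in CAF-200, a ratio of 1.78 (log2 fold-change 0.83 ± 0.09 SE, adjusted *p* = 0.00377, limma). *Ttk*, the Mps1 kinase that starts checkpoint signalling, was read at 15.7 and 16.2 CPM in CAF-vec and at 28.1, 27.0 and 25.7 CPM in CAF-200 (log2 fold-change 0.73 ± 0.09 SE, adjusted *p* = 0.00506, limma). The groups of both genes were well apart, and over 14 alternative settings the log2 fold-change ran from 0.76 to 0.93 for *Mad2l1* and from 0.70 to 0.83 for *Ttk*. *Bub1*, the checkpoint kinase that also recruits shugoshin to centromeres, was read at 15.4 and 24.5 CPM in CAF-vec and at 44.6, 42.6 and 43.5 CPM in CAF-200 and gave a log2 difference of 1.14 ± 0.19 SE, with an adjusted *p* of 0.011 (limma). Its fold-change was past the fold limit of 1 and its adjusted *p* was just outside 0.01, and the log2 difference was 1.47 against CAF-vec 1 and 0.82 against CAF-vec 2. *Bub1b*, which encodes the partner BubR1, was read at 40.02 and 40.32 CPM in CAF-vec and at 42.0, 43.3 and 41.1 CPM in CAF-200. Its log2 fold-change was 0.07 ± 0.08 SE (adjusted *p* = 0.53, limma), so these 4 genes of the same checkpoint were spread over more than 1 log2 unit. Against CAF-vec 2 alone the spread was smaller, from 0.06 (*Bub1b*) to 0.89 (*Mad2l1*), and against CAF-vec 1 alone it ran from 0.07 (*Bub1b*) to 1.47 (*Bub1*).

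Of the 4 genes of the switch into anaphase, 1 was higher at the looser threshold, beside 11.9% of all genes tested. *Ube2c*, the ubiquitin-conjugating enzyme of the APC/C, was read at 48.2 and 86.3 CPM in CAF-vec and at 129, 119 and 121 CPM in CAF-200 (log2 fold-change 0.93 ± 0.24 SE, adjusted *p* = 0.0354, limma). Its CAF-vec samples were the furthest apart among the members, and the log2 difference was 1.34 without CAF-vec 2 and 0.51 without CAF-vec 1. *Cdc20*, the mitotic activator of the APC/C, was read at 109 and 68.9 CPM in CAF-vec and at 77.4, 68.1 and 62.7 CPM in CAF-200 (log2 fold-change -0.32 ± 0.21 SE, adjusted *p* = 0.276, limma). The lower value rests on CAF-vec 1: without it the log2 difference was 0.0059, and without CAF-vec 2 it was -0.65. *Espl1*, separase, which cuts cohesin, was above both CAF-vec samples in every CAF-200 sample (a log2 difference of 0.46, limma adjusted *p* = 0.0759). *Pttg1*, securin, the inhibitor of separase, was read at 131 and 119 CPM in CAF-vec and at 122, 113 and 118 CPM in CAF-200, overlapping groups with a log2 difference of -0.09 (adjusted *p* = 0.486, limma) that turned to 0.026 with quantile normalization and to 0.008 with centring on sample medians. *Cdc20* shares 24.1% of its 32-base words with the pseudogene *Gm7856*, which has no row in the table, and 22.8% of the exonic bases of *Ube2c* overlap *Tnnc2* on the opposite strand, a gene at 0.348 CPM or less in every sample.

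Of the 7 kinetochore and centromere genes, 1 rose, beside 4.45% of all genes tested, and 4 (that one included) were higher at the looser threshold, beside 11.9%. The centromeric histone was lower at it, 1 gene of 7, a share near the 18.6% of all genes tested. *Ndc80*, the microtubule-binding subunit, rose from 26.5 and 26.9 CPM in CAF-vec to 41.5, 43.1 and 40.1 CPM in CAF-200 (log2 fold-change 0.63 ± 0.08 SE, adjusted *p* = 0.00616, limma). Its partners *Spc25* (a log2 difference of 0.59, limma adjusted *p* = 0.0102) and *Nuf2* (0.54, adjusted *p* = 0.0144, limma) were higher at the looser threshold, and the fourth subunit *Spc24* gave 0.28 (adjusted *p* = 0.112, limma). All 4 genes of this complex were above both CAF-vec samples in every CAF-200 sample, beside 24.3% of all genes tested. *Cenpe*, the kinetochore motor that moves chromosomes to the spindle equator, passed the looser threshold (0.41, adjusted *p* = 0.0349, limma). *Cenpa*, the histone H3 variant that marks centromeres, was read at 110 and 104 CPM in CAF-vec and at 80.2, 79.5 and 75.6 CPM in CAF-200, a ratio of 0.735 (log2 fold-change -0.44 ± 0.08 SE, adjusted *p* = 0.015, limma). It was the only member with all CAF-200 samples below both CAF-vec samples and the only one lower at the looser threshold, with a log2 fold-change between -0.48 and -0.34 over 14 alternative settings, and a similar difference from CAF-vec 1 (-0.48) and from CAF-vec 2 (-0.40). Its adjusted *p* (limma) ran from 0.000656 to 0.128 over those settings and missed 0.05 without CAF-200 1 (0.0766), CAF-200 2 (0.0789) or CAF-200 3 (0.09). *Cenpf*, a large kinetochore protein, was read at 32.4 and 31.7 CPM in CAF-vec and at 33.2, 30.9 and 28.6 CPM in CAF-200 (a log2 difference of -0.05, limma adjusted *p* = 0.687), a sign that turned with quantile normalization (0.05) and with centring on sample medians (0.04).

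Among the spindle motors and microtubule-binding genes, every CAF-200 sample was above both CAF-vec samples in all 4, beside 24.3% of all genes tested. *Kif11*, the motor that pushes spindle poles apart, rose from 35.9 and 36.2 CPM in CAF-vec to 51.8, 51.5 and 50.9 CPM in CAF-200 (log2 fold-change 0.51 ± 0.08 SE, adjusted *p* = 0.00869, limma), and its samples were close together in both groups. *Nusap1*, which bundles spindle microtubules, had the largest difference of this role, at 15.4 and 23.6 CPM in CAF-vec and 34.4, 34.9 and 34.9 CPM in CAF-200 (log2 fold-change 0.85 ± 0.18 SE, adjusted *p* = 0.02, limma). Against CAF-vec 1 alone it was 1.15 and against CAF-vec 2 alone 0.55. *Kif4*, a chromosome-associated motor, gave 0.50 (adjusted *p* = 0.0111, limma), with 15.1% of its exonic bases overlapped on the opposite strand by *Pdzd11*, a gene at up to 86.6 CPM. *Kif2c*, a microtubule depolymerase, was read at 26.4 and 33.2 CPM in CAF-vec and at 35.1, 36.7 and 34.9 CPM in CAF-200 (a log2 difference of 0.26, limma adjusted *p* = 0.143).

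The central spindle and cytokinesis genes had a lower median, 0.16, and 1 of 6 passed the looser threshold, a share near the 11.9% of all genes tested. That gene was *Prc1*, which cross-links the microtubules of the central spindle, at 116 and 106 CPM in CAF-vec and 142, 145 and 136 CPM in CAF-200 (log2 fold-change 0.35 ± 0.09 SE, adjusted *p* = 0.0362, limma). *Anln*, the anillin of the contractile ring, was close behind and above both CAF-vec samples in every CAF-200 sample (0.29, adjusted *p* = 0.053, limma). The others overlapped between groups. *Racgap1* and *Kif23*, the partners of the centralspindlin complex, had about the same log2 fold-change (0.15 each, adjusted *p* = 0.324 and 0.449, limma), and *Ect2*, the exchange factor that centralspindlin recruits, gave 0.18 (adjusted *p* = 0.339, limma). *Kif20a*, the motor that carries the passenger complex to the central spindle, was read at 118 and 97.1 CPM in CAF-vec and at 105, 99.0 and 92.7 CPM in CAF-200 (a log2 difference of -0.11, limma adjusted *p* = 0.485), and 29.3% of its exonic bases overlap *Cdc23* on the opposite strand, a gene at up to 72.6 CPM. Without CAF-vec 1 the log2 difference of *Kif20a* was 0.025, and without CAF-vec 2 that of *Kif23* was -0.04 and that of *Ect2* was -0.0021.

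*Top2a*, the topoisomerase that untangles sister chromatids, was read at 262 and 218 CPM in CAF-vec and at 359, 331 and 348 CPM in CAF-200 (log2 fold-change 0.53 ± 0.12 SE, adjusted *p* = 0.0214, limma). *Mki67*, which encodes the proliferation marker Ki-67, was read at 36.4 and 54.3 CPM in CAF-vec and at 69.6, 71.1 and 69.1 CPM in CAF-200 (log2 fold-change 0.65 ± 0.17 SE, adjusted *p* = 0.0381, limma). Both passed the looser threshold, beside 11.9% of all genes tested called higher, and had no overlap between the groups, beside 24.3% that lay above in this way. The difference of *Mki67* was 0.93 against CAF-vec 1 and 0.36 against CAF-vec 2.

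Of the transcription factors that drive this program, *Mybl2* was the member with the largest log2 fold-change in the main fit. With a pseudocount of 1 *Bub1* was ahead of it (1.124 against 1.119). Without CAF-vec 2, *Bub1* (1.47), *Ube2c* (1.345) and *Nusap1* (1.15) were ahead of it (1.10). *Mybl2* (ENSMUSG00000017861, chr2:163054687-163084688 of GRCm38, plus strand), which encodes B-Myb, was read at 9.41 and 8.62 CPM in CAF-vec and at 19.9, 21.8 and 20.6 CPM in CAF-200, a ratio of 2.3 (log2 fold-change 1.16 ± 0.10 SE, adjusted *p* = 0.00278, limma). Only 2.42% of all genes tested had a log2 fold-change above that of *Mybl2*, which ran from 1.10 to 1.26 over 14 alternative settings, with adjusted *p* between 6.44e-05 and 0.0277. A share of 25.2% of its 32-base words is also in the pseudogene *Gm3320*, which has no row in the table. *Foxm1*, the forkhead factor that joins B-Myb at mitotic promoters, was read at 88.7 and 84.7 CPM in CAF-vec and at 120, 116 and 116 CPM in CAF-200 (log2 fold-change 0.44 ± 0.08 SE, adjusted *p* = 0.014, limma). It passed the looser threshold, with close values within each group.

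Read per kilobase of exon (GENCODE M21, GRCm38), the order of levels among members was led by *Cdk1* in both groups, at a mean of 66.9 CPM per kb in CAF-vec and 96.2 in CAF-200, followed by *Pttg1* at 62.5 and 58.8. *Ube2c* went from rank 8 (25.9 CPM per kb) to rank 3 (47.4), and *Cdc20* from rank 3 (47.6) to rank 7 (37.2). *Mybl2*, the gene with the largest log2 fold-change in the main fit, was the lowest of the 40 per kilobase in CAF-vec, at 1.95 CPM per kb, and stood at rank 37 in CAF-200, at 4.48. The lowest in CAF-200 was *Cenpf*, at 2.0.

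The 2 CAF-vec samples set much of the uncertainty of the members. Between them 6 of the 40 genes differed by more than 0.5 on the log2 scale (*Ube2c*, *Cdc20*, *Bub1*, *Tpx2*, *Nusap1* and *Mki67*), and none did between any pair of CAF-200 samples. CAF-vec 2 was above CAF-vec 1 in 15 members and below it in 25, beside 5413 and 6749 of all genes tested. Measured from each CAF-vec sample in turn, the mean of CAF-200 was higher than both in 29 members, lower than both in 3 (*Cenpa*, *Pttg1* and *Cenpf*), and higher than one but lower than the other in 8 (*Ccnb1*, *Ccnb2*, *Aurka*, *Tpx2*, *Cdc20*, *Kif20a*, *Kif23* and *Ect2*). The 5 members that rose were among those whose CAF-vec samples were close, with gaps from 0.014 (*Kif11*) to 0.13 (*Mad2l1*).

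**Figure D3:**
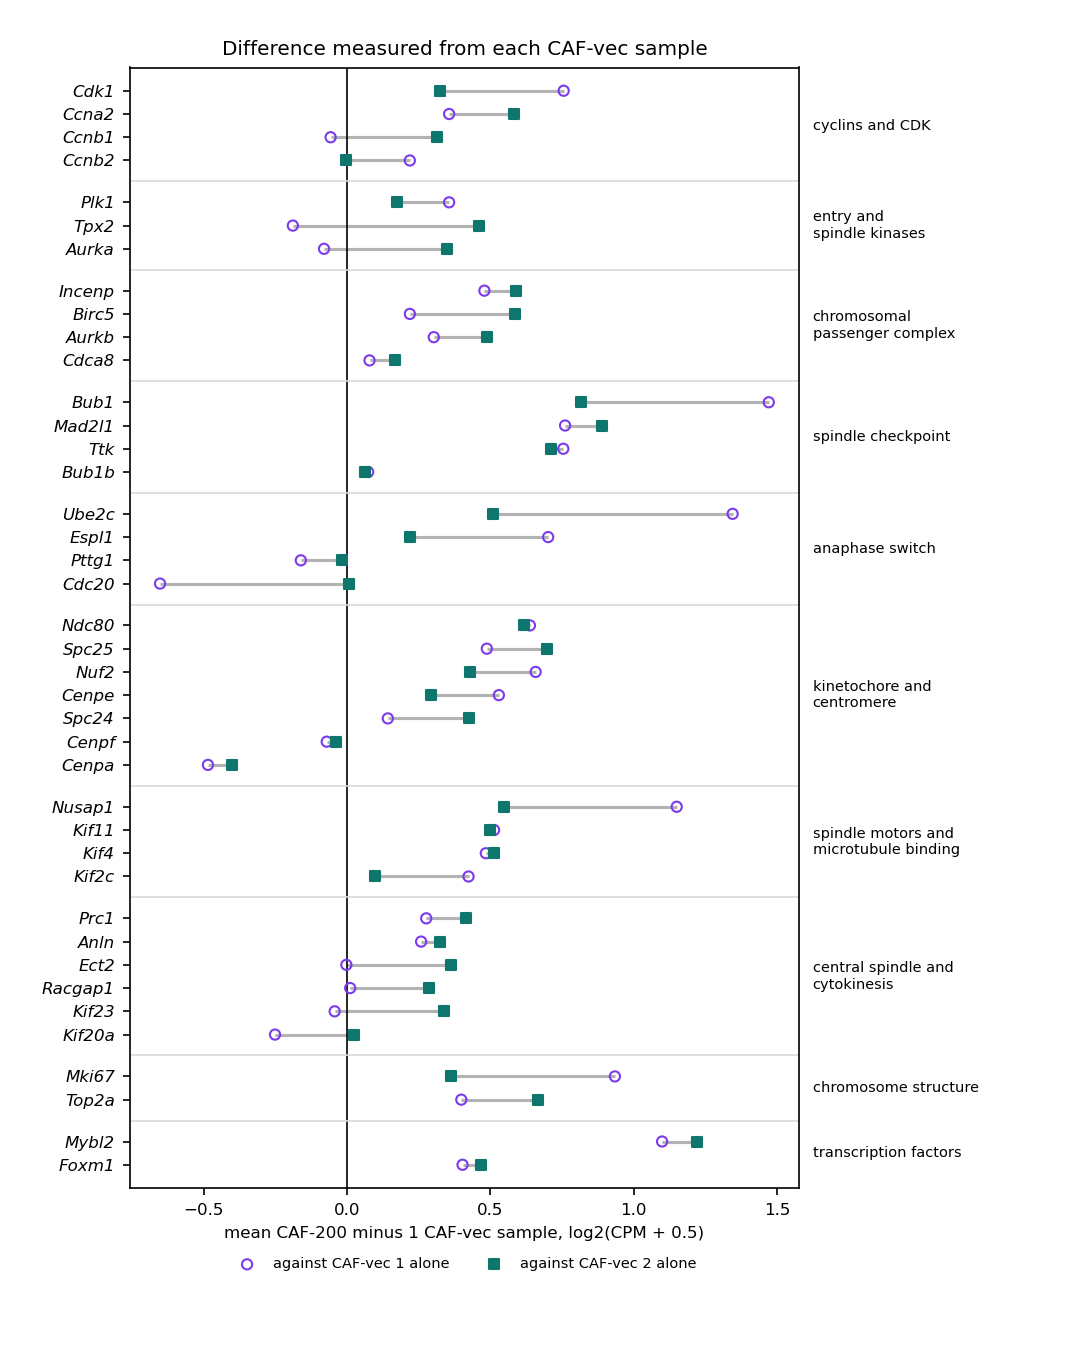
Mean log2(CPM + 0.5) of the 3 CAF-200 samples minus the value of CAF-vec 1 (open circles) or CAF-vec 2 (squares) for each of the 40 genes, joined by a line. Both symbols lie right of 0 in 29 genes, left of 0 in 3 and on either side of 0 in 8, and the longest line, 0.83, is that of *Ube2c*.

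Genes tied to the members by pathway were taken as further lists and read from the same fit, and each count below stands beside 4.45% of all genes tested that rose, 11.9% that were higher at the looser threshold and 41.7% above 0. Of 50 further mitotic genes, 9 rose, none fell, and 23 were higher at the looser threshold, with a median log2 fold-change of 0.35, close to the 0.40 of the members. They reached from *Gas2l3* (-0.73, adjusted *p* = 0.107, limma), a cytoskeleton linker whose CAF-vec samples were at 45.7 and 22 CPM, to *Cks2* (1.29, adjusted *p* = 0.0616, limma), a Cdk1-binding protein at 31.1 and 87.4 CPM in CAF-vec. Both ends thus belonged to genes with a wide gap between the CAF-vec samples. Of 18 constitutive centromere and Mis12 genes, 3 rose and 12 were higher at the looser threshold, with a median of 0.57, from *Itgb3bp* (-0.06) to *Cenpk* (1.32, adjusted *p* = 0.0161, limma). Of these genes 17 lay on the opposite side of 0 from *Cenpa*, and *Itgb3bp* did not. *Hjurp*, the chaperone that loads Cenpa onto centromeres, was at 138 and 139 CPM in CAF-vec and at 182, 177 and 177 CPM in CAF-200 (0.36, adjusted *p* = 0.0232, limma), and *Oip5*, of the loading complex, rose (0.60, adjusted *p* = 0.00924, limma). *Hjurp* and *Oip5* were named after their values were seen.

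Of 17 condensin and cohesin genes, 3 rose and 8 were higher at the looser threshold, with a median of 0.15, from *Ncaph2* (-0.25) to *Ncapd3* (1.04, adjusted *p* = 0.00711, limma), a condensin II subunit. Of the subunits and regulators of the APC/C, 12 of 17 had a log2 fold-change below 0, beside 58.3% of all genes tested. None of the 17 passed 0.01 in either direction (limma, with 2 higher and 5 lower at an unadjusted *p* under 0.05, beside 17.3% and 27.6% of all genes tested), and the 3 that were lower at the looser threshold are a share near the 18.6% of all genes tested. Their median was -0.28, from *Anapc2* (-0.65, adjusted *p* = 0.0299, limma) to *Anapc10* (1.04, adjusted *p* = 0.121, limma), read at 5.02 and 15.6 CPM in CAF-vec. Of 11 genes of the MuvB and DREAM complexes, the latter of which holds mitotic genes off in quiescent cells, 2 rose and 5 were higher at the looser threshold (median 0.33, from *Lin37* at -0.24 to *Rbl1* at 0.71). Of 6 E2F genes and their feedback partners, 2 rose and 3 were higher at the looser threshold (median 0.56), from *E2f1* at 0.25 to *E2f8* at 1.47 (adjusted *p* = 0.00589, limma).

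The genes of DNA replication initiation, which act one phase earlier, stood higher still. All 23 had a log2 fold-change above 0, 14 rose, 18 were higher at the looser threshold, 4 passed both thresholds (2.37% of all genes tested), and the median was 0.83, beside 0.40 for the mitosis and cytokinesis genes. The extremes were *Cdc6*, a loader of the replicative helicase, at 14.6 and 11.6 CPM in CAF-vec and 38.8, 36.9 and 39.0 CPM in CAF-200 (1.52, adjusted *p* = 0.00254, limma), and *Orc3*, of the origin recognition complex (0.24, adjusted *p* = 0.459, limma). The difference between these lists was not tested.

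**Figure D4:**
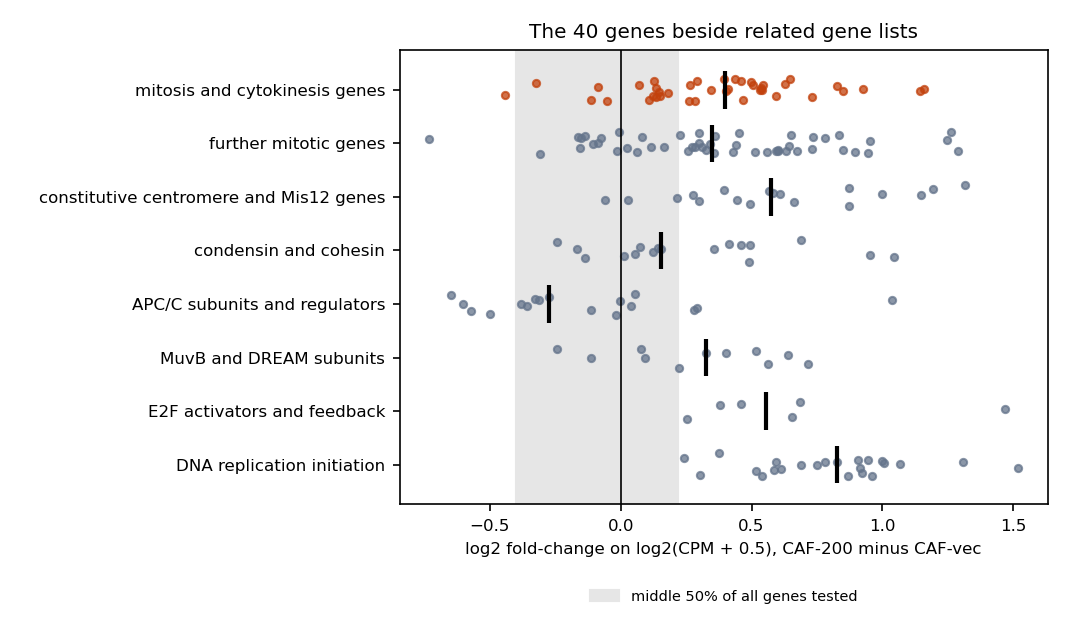
Log2 fold-change (CAF-200 minus CAF-vec, on log2(CPM + 0.5)) of the 40 mitosis and cytokinesis genes and of each related list; each point is a gene, the black bar is the list's median, and grey marks the middle 50% of all genes tested. The medians run from -0.28 for the APC/C genes through 0.40 for the 40 genes to 0.83 for DNA replication initiation.

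Many mitotic promoters carry the cell cycle homology region (CHR), a short element bound by MuvB, together with CCAAT boxes bound by NF-Y, so the RefSeq promoters (GRCm38.p6, from 250 bases before to 50 after the start) were searched for these letters. A promoter was found for 33 of the 40 genes, 35 promoters in all, and those of *Kif20a*, *Tpx2*, *Aurkb*, *Ccna2*, *Incenp*, *Foxm1* and *Spc24* were not searched. The CHR letters, TTTGAA or TTCGAA on either strand, were in 77.1% of the members' promoters and in 19.2% of all 32851 promoters of the same length. CCAAT on either strand was in 74.3% against 37.4%, at least 2 CCAAT in 48.6% against 11.7%, and both elements in 68.6% against 7.52%. A match of letters is a description and not a measured site.

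The following 30-base stretches are shown to compare members that were higher in CAF-200 with members that were not, and each is written on the strand of its gene with the CHR letters in capitals (TTCAAA is TTTGAA on the other strand). The coordinates are, in order, chr2:127831828-127831857 (minus strand), chr2:164769888-164769917 (plus), chr9:83834684-83834713 (plus), chr17:71526811-71526840 (minus), chr19:37376351-37376380 (plus), chr10:69352910-69352939 (minus), chr9:70421533-70421562 (minus), chr4:118437344-118437373 (minus) and chr5:30666890-30666919 (plus).
Bub1: ctgcgcggggaaTTCGAAtcgccggcggcc
Ube2c: ggagggttgcaaTTCAAAcgcgggcggcgg
Ttk: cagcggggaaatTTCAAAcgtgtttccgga
Ndc80: gaaactttaaaaTTCAAAccgccttgggtt
Kif11: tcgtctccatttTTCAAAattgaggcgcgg
Cdk1: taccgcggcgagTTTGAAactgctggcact
Ccnb2: agcggcgcggtaTTTGAAtcgcggaccggg
Cdc20: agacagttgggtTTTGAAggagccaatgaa
Cenpa: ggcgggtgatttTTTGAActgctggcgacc
Genes on both sides of 0 thus hold CHR letters: *Cdk1* at 0.54 and *Cenpa* at -0.44 both hold TTTGAA, and *Bub1* at 1.14 holds TTCGAA. Over the 25 members with CHR letters the median log2 fold-change was 0.29, with a range from -0.44 to 1.14, and over the 8 members without them (*Birc5*, *Ccnb1*, *Cenpe*, *Mad2l1*, *Mybl2*, *Nuf2*, *Nusap1* and *Pttg1*) it was 0.48, with a range from -0.09 to 1.16. The members without a searched promoter are in neither group, and the difference between the groups was not tested. Of the members that rose, *Mybl2* and *Mad2l1* were without these letters in this window, and *Ttk*, *Ndc80* and *Kif11* held them.

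The seed matches of the overexpressed miRNAs were counted in the longest annotated 3′-UTR of each gene (GENCODE M21). A 7-base match to either seed was in 8 of 40 members and in 30.3% of the 12055 tested genes with an annotated 3′-UTR, whose median length was 1174 bases against 729 for the members. The miR-200a match was in 15.0% of the members and 20.8% of the tested genes, and the match of miR-200b and miR-429 in 7.5% and 15.7%. The members with a match were *Ccnb1*, *Cdk1*, *Aurkb*, *Birc5*, *Cenpf*, *Racgap1*, *Anln* and *Foxm1*. The sites of 4 of them are shown, with the match in capitals, because *Ccnb1* alone holds both kinds and *Cdk1*, *Aurkb* and *Foxm1* were higher in CAF-200 at the looser threshold. They lie at chr13:100778942-100778970 and chr13:100779060-100779088 (both minus strand), chr10:69338064-69338092 (minus), chr11:69051084-69051112 (plus) and chr6:128375184-128375212 (plus).
Ccnb1, miR-200a: agtgccctccaCAGTGTTcttaaatgatg
Ccnb1, miR-200b and miR-429: cattttatcaaCAGTATTcctatcagcat
Cdk1, miR-200a: ccacctacggaCAGTGTTtttctacttgt
Aurkb, miR-200a: ctgtcatttttCAGTGTTctttgtatgtc
Foxm1, miR-200b and miR-429: cccattccattCAGTATTcaggcctgaaa
Of the 8 members with a match, *Cenpf* (-0.05) alone had a log2 fold-change below 0, a share like the 5 of all 40 members, and the highest was *Cdk1* (0.54). Whether a match goes with the fold-change was not tested. *Cenpa*, the only member lower at the looser threshold, held no match in its 3′-UTR.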

How the data were processed

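RNA of CAF-vec (2 samples) and CAF-200 (3 samples) was read on paired-end stranded mRNA libraries. The authors deposited normalized CPM values in a table named for TMM. The labels name FastQC, cutadapt, Trimmomatic, STAR, RSEM and edgeR and the builds GRCm38 and mm10, with no order, and strand use in counting is not given in the sources used here. The RNA kit differs between labels and methods, and the methods mention triplicates. The values are not whole reads, so no count test was run and the depth is unknown. The test was limma 3.58.1 (R 4.3.3, eBayes with a variance trend) on log2(CPM + 0.5) for the 12175 of 21835 genes that reached 0.5 CPM in 2 or more samples, with Benjamini-Hochberg adjustment over all of them. A fold-change on this scale understates that of low genes. The script was tested on simulated data with the same spread in both groups, which does not cover the wider spread of the CAF-vec samples. Rose and fell mean an adjusted *p* under 0.01, and the study's thresholds add a log2 fold-change beyond 1. Values per sample are given for the extreme members of each role and for 8 preset genes, and the extremes of each further list are named. The members and lists were chosen with earlier results of these data known. Positions, 3′-UTRs and exon lengths are from GENCODE M21, and miRNAs and promoters from RefSeq, read in Python 3.11.15 (pandas 2.3.3, numpy 2.4.6, matplotlib 3.10.9). Alternatives were other pseudocounts (1, 0.1), filters, scalings and thresholds, no trend, each sample left out and the replicate number as a block.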

Additional observations from a re-analysis of the deposited data

How the results depend on the processing

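The 5 members that rose and the 1 past both thresholds depended on the settings. With quantile normalization 12 rose (5.86% of all genes tested were called higher), 2 passed both thresholds and the median was 0.49, and with centring on sample medians 10 rose (5.91%) and the median was 0.50 (0.4955). These scalings moved the median of all genes from -0.09 to -0.02 and 0.0027, and the share of all calls that were higher from 44.4% to 54.0% and 57.0%. *Pttg1* and *Cenpf* turned to 0.026 and 0.052 with quantile normalization and to 0.0080 and 0.042 with centring. At an adjusted *p* under 0.05, 20 were higher (11.9% of all genes tested), 1 was lower (18.6%) and 2 passed with the fold limit, and with a fold limit of 0.5, 5 passed. The share of all genes tested past both thresholds was taken only for the main fit, 2.37% in the upward direction. Leaving out a sample gave 0 to 25 members that rose, 0 to 2 that fell and 0 to 4 past both thresholds. Over the samples left out, the log2 fold-change ran across 0 in 8 members, from -0.0024 to 0.219 in *Ccnb2*, -0.652 to 0.0059 in *Cdc20* and -0.251 to 0.025 in *Kif20a*, whose sign turned without CAF-vec 1, and from -0.057 to 0.314 in *Ccnb1*, -0.0798 to 0.35 in *Aurka*, -0.189 to 0.462 in *Tpx2*, -0.043 to 0.339 in *Kif23* and -0.0021 to 0.363 in *Ect2*, whose sign turned without CAF-vec 2. Other pseudocounts and filters changed no member's call at 0.01, and leaving out the variance trend ended 1, that of *Kif11* (limma adjusted *p* = 0.01185). At 0.05, no filter ended the calls of *Cdk1* (adjusted *p* = 0.0598), *Ube2c* (0.0586) and *Mki67* (0.0593), leaving 17 higher beside 8.41% of all genes tested, and quantile normalization ended that of *Cdk1* (0.0624). The cause of these differences was not tested.

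With the replicate block 0 members rose and 0 passed both thresholds (limma, with 20 higher at an unadjusted *p* under 0.05, beside 12.9% of all genes tested), when 0.83% of all genes tested were called higher and 0.575% lower, and 6 members were higher at 0.05, beside 5.17% of all genes tested, the adjusted *p* of the 5 that rose being 0.0162 to 0.0792. The correlation of the deviations was 0.25 for the samples numbered 1 and 0.13 for those numbered 2, over 2 pairs only, and nothing in the labels says that a number marks a shared culture or day, so the numbers were not taken as pairs. The depth is unknown, and 2 CAF-vec samples limit the precision of every value.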
